A study of Mus musculus with 12 samples.

Results

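STAT proteins (signal transducers and activators of transcription) carry cytokine signals from the cell membrane to the nucleus. A cytokine brings receptor chains together, the JAK kinases bound to them phosphorylate a STAT, and paired STATs enter the nucleus and bind DNA, where they switch on target genes that include their own inhibitors, the SOCS proteins. In dendritic cells, which present antigen to T cells, STAT2 serves type I interferon, STAT3 serves IL-6 and IL-10, STAT4 serves IL-12, STAT5A and STAT5B serve GM-CSF, and STAT6 serves IL-4 and IL-13.

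The STAT genes were taken by symbol from the gene tables of 12 RNA-seq libraries. They were 6 of 55335 genes: Stat2, Stat3, Stat4, Stat5a, Stat5b and Stat6. Each had 1 gene identifier, and all 6 passed the filter on low counts, as did 14008 genes in all. The measured values are messenger RNA levels, which do not tell how much of each protein was phosphorylated.

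The libraries came from dendritic cells grown for 6 days from mouse bone marrow with GM-CSF (BMDCs), in 4 groups of 3 biological replicates. WT cells came from CreER mice and KO cells from CreER;CTCF fl/fl mice, both C57BL/6, in which CreER is driven from the ubiquitous Rosa26 locus. At the start of culture, 4-OH tamoxifen was given to delete Ctcf, the gene of a DNA-binding protein that anchors chromatin loops, and the sources used here do not make plain whether WT cultures received it too. WTLPS and KOLPS cells were given the bacterial lipopolysaccharide LPS at 100 ng/ml for 3 h. According to the methods, the mice were male and female littermates of 8 to 12 weeks and the cells were selected on beads for CD11c, so that the WT group is a CreER control and not a mouse without a transgene.

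Total expected counts were 12769773 to 16586334 per library. Ribosomal RNA genes took 5.165% of WTLPS replicate 2 and at most 1.185% of any other library. Ctcf had 1051, 987 and 975 normalized counts in WT, 570, 562 and 516 in KO, 886, 817 and 745 in WTLPS and 563, 530 and 526 in KOLPS. It was 0.547 times the WT level in KO cells (adjusted p = 3.9e-07), and reads outside the deleted exons may count toward it. All 11 dendritic cell markers were detected in every group, with a summed level of 13100 to 13900 TPM in WT, 13100 to 17800 in WTLPS, 8570 to 8950 in KO and 13100 to 18300 in KOLPS. The lower sum in KO lay in the antigen presentation genes H2-Aa (3520 TPM in WT and 1480 in KO), H2-Eb1 (2160 and 914), H2-Ab1 (1740 and 923) and Cd74 (5130 and 4250). Itgax, the gene of CD11c, was at 366 TPM in WT and 606 in KO, and Itgam at 209 and 221. The 8 neutrophil markers summed to 375 to 399 TPM in WT, 348 to 443 in WTLPS, 193 to 225 in KO and 288 to 332 in KOLPS, with none at 0 in any group. Most of each sum was S100a8 (244 TPM in WT and 168 in KO) and S100a9 (128 and 37.5). Ly6g was at 0.43 and 0.123 TPM and Elane at 0.33 and 0.0367. In bulk RNA, fewer cells of a type and less RNA per cell cannot be told apart.

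Stat5b, Stat5a and Stat3 lie next to each other on chromosome 11, and Stat2 and Stat6 lie on chromosome 10 and Stat4 on chromosome 1. On mm10, Stat5b (ENSMUSG00000020919.11) spans 100780731 to 100850724 on the minus strand, Stat5a (ENSMUSG00000004043.14) 100859351 to 100885169 on the plus strand and Stat3 (ENSMUSG00000004040.16) 100885098 to 100939540 on the minus strand. The ends of Stat5a and Stat3 overlap by 72 bases. Stat6 (ENSMUSG00000002147.18) spans 127642986 to 127660957 on chromosome 10, plus strand, and overlaps the end of Nab2 by 40 bases. Stat2 (ENSMUSG00000040033.16) spans 128270559 to 128292849 on chromosome 10, plus strand. Stat4 (ENSMUSG00000062939.11) spans 51987148 to 52107189 on chromosome 1, plus strand, and shares 29929 bases with the noncoding transcript Gm28177. Whether reads were assigned by strand is not given in the sources used here, so reads in these overlaps can be shared between the genes.

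The start regions of the genes were read from RefSeq (GRCm38.p6), from 250 bases before to 50 after each annotated start, and all 6 genes had at least 1. They were searched on both strands for GAAANNGAA (the core of the interferon-stimulated response element, ISRE, bound by ISGF3) and TTCNNNGAA (GAS, the site of paired STATs). Of all 32851 start regions, 8.56% held the ISRE letters and 8.3% the GAS letters. The Stat2 region and the second of the Stat4 regions held 1 ISRE match each, at positions -221 and -97 from the start, and no other STAT start region held either motif. The regions of both genes are shown, since they are the genes called lower with CTCF loss, and the letters that match are in capitals. A match is a run of letters and not a measured binding site, and no overlap between the motifs occurred in these regions.
Stat2, chr10:128270248-128270547, plus strand, ISRE letters in capitals: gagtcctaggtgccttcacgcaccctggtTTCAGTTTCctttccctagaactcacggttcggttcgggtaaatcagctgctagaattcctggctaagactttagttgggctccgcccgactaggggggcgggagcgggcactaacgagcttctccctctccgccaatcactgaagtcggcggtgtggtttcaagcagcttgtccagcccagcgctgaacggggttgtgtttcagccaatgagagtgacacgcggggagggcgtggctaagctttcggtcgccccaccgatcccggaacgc
Stat4, second start, chr1:52007990-52008289, plus strand, ISRE letters in capitals: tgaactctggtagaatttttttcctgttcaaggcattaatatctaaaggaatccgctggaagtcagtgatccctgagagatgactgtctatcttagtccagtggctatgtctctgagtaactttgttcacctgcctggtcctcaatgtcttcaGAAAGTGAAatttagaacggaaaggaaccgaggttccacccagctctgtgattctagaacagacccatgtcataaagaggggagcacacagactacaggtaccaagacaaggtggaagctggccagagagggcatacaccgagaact
Stat4, first start, chr1:51986898-51987197, plus strand, no match: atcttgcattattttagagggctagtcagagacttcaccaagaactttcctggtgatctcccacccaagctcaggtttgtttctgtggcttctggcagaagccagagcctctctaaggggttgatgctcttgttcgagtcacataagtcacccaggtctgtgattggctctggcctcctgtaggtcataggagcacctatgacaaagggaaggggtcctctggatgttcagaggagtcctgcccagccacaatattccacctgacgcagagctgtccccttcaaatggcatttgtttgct

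The messenger RNA levels of the STAT genes were compared with each other on the TPM scale, which is per length. In unstimulated WT cells the order was Stat6 (109 ± 1.63 TPM, SD, n = 3), Stat2 (82.7 ± 4.29), Stat3 (69.8 ± 2.77), Stat5a (52.4 ± 4.15), Stat4 (31.8 ± 2.65) and Stat5b (22.1 ± 0.84), and no neighbours in this order overlapped. Stat6, the STAT of IL-4, led, and both genes of the GM-CSF STATs were in the lower part of the order. In WTLPS, Stat2 (262 ± 41.8 TPM) and Stat5a (233 ± 18.9) led and overlapped each other, Stat3 (100 ± 10.3) overlapped Stat6 (88.5 ± 4.38), and Stat4 (33.2 ± 5.0) overlapped Stat5b (29.3 ± 1.63).

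In unstimulated KO cells the order was again free of overlaps, with Stat6 at 118 ± 1.57 TPM, Stat3 at 74.6 ± 2.53, Stat5a at 57.2 ± 2.21, Stat2 at 34.7 ± 1.21, Stat5b at 25.5 ± 1.43 and Stat4 at 14.8 ± 1.86. Stat2 thus stood at rank 2 in WT and 4 in KO, and Stat4 at rank 5 and 6. In KOLPS, Stat5a (218 ± 22.4 TPM), Stat2 (182 ± 41.4) and Stat3 (145 ± 15.2) led, each overlapping the next, ahead of Stat6 (84.3 ± 6.92), Stat4 (48.3 ± 6.88) and Stat5b (31.0 ± 2.91). The 6 genes summed to 368 ± 3.80 TPM in WT, 747 ± 26.6 in WTLPS, 325 ± 8.08 in KO and 710 ± 74.0 in KOLPS. Stat6 was 29.6% of that sum in WT and 11.8% in WTLPS, while Stat5a was 14.3% and 31.2%.

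**Figure D1:**
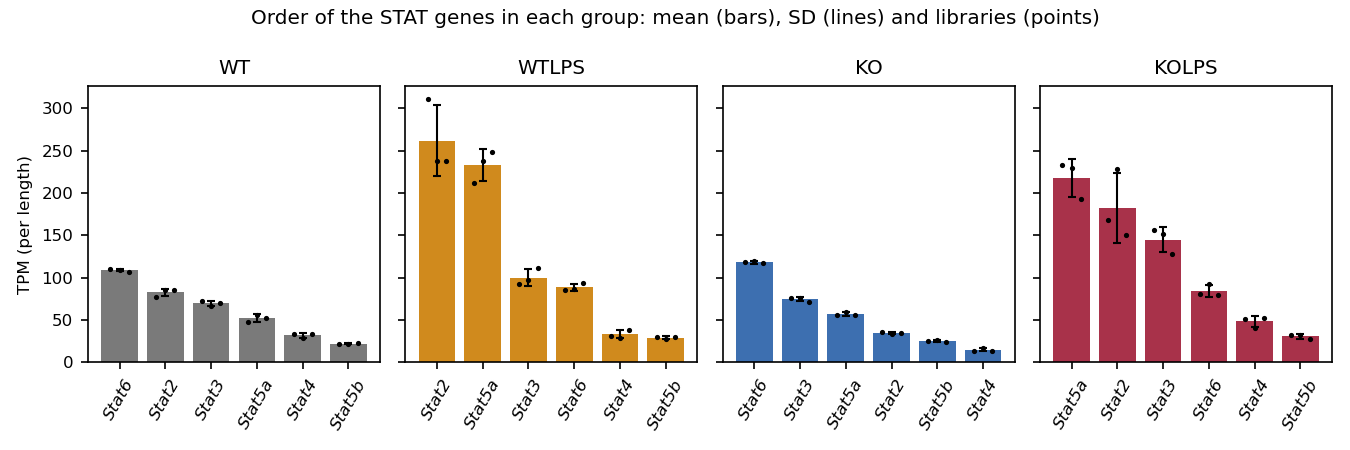
TPM of the 6 STAT genes in each group, ordered from the highest, with bars for the mean of 3 libraries, lines for the SD and points for the libraries. Stat6 leads in WT (109 TPM) and KO (118 TPM), Stat2 in WTLPS (262 TPM) and Stat5a in KOLPS (218 TPM).

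Counts were then compared between groups to find how LPS and CTCF loss changed each gene. With LPS, all 6 STAT genes were called higher in WTLPS than in WT and none lower at an adjusted p under 0.05 on normalized counts, but on the TPM scale Stat6 was called lower and Stat4 was not called. Of all genes tested, 30.0% were called higher and 30.2% lower, and the median log2 fold change was 0.99 over the STAT genes and -0.02 over all. TPM, which adds up to the same total in each library, placed the median of all genes at -0.44 (1694 genes higher and 7496 lower, against 4209 and 4224 on normalized counts). On that scale Stat4 was at 0.05 (adjusted p = 0.74) and Stat6 at -0.30 (adjusted p = 0.0056), both above that median. With TPM brought to a common median, Stat4 was at 0.54 (adjusted p = 0.0068) and Stat6 at 0.20 (adjusted p = 0.041).

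In KO cells, 5 of the 6 were called higher in KOLPS than in KO and none lower, where 33.6% of all genes were called higher and 33.9% lower. The median was 1.83 over the STAT genes. Stat6 was the gene not called on normalized counts, and on TPM, where the median of all genes was -0.38 (2225 genes higher and 6931 lower, against 4704 and 4752), it was called lower at -0.49 (adjusted p = 0.00022). The comparison of CTCF loss in unstimulated cells split the family. Stat3, Stat5b and Stat6 were called higher in KO than in WT, Stat2 and Stat4 lower, and Stat5a neither, against 22.2% of all genes higher and 22.4% lower. None of the 3 higher calls was made on TPM as deposited. Under LPS, 2 genes, Stat3 and Stat4, were called higher in KOLPS than in WTLPS and 1, Stat2, lower (21.4% and 23.3% of all genes). The LPS response itself, as the fold in KO divided by the fold in WT, was called larger in KO for 3 genes, Stat2, Stat3 and Stat4, and smaller for none (8.70% and 8.75% of all genes). The comparisons share groups, and a fold in one is not independent of that in another.

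**Figure D2:**
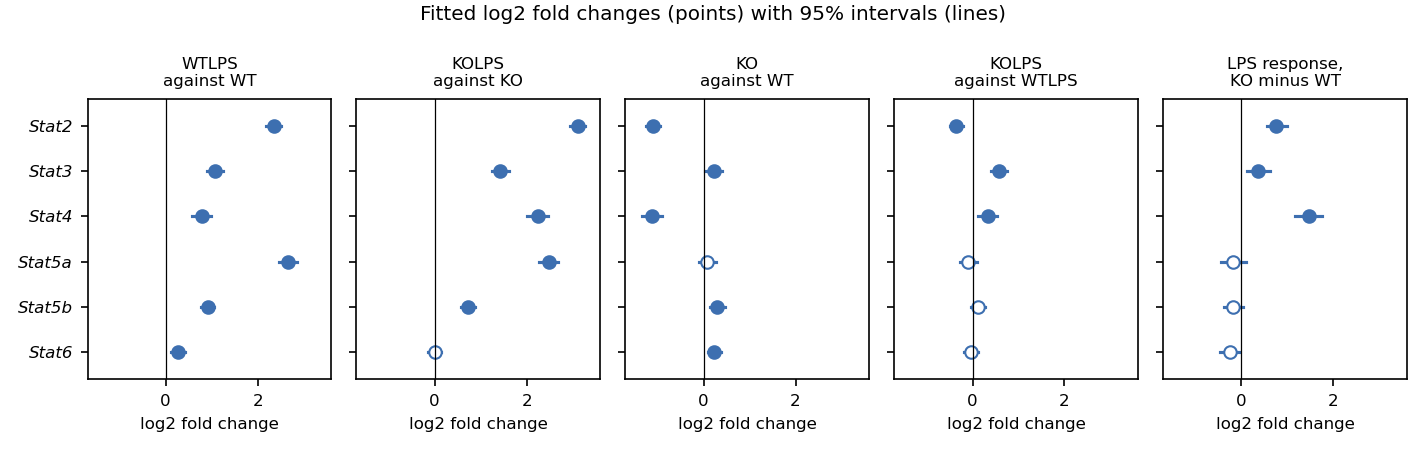
Log2 fold changes of normalized counts (x axis) for the 6 STAT genes in 5 comparisons from the edgeR fit of 12 libraries, with points for the estimates, lines for 95% intervals, and filled points for an adjusted p under 0.05. Stat2 and Stat4 lie left of 0 in KO against WT (-1.11 and -1.13) and right of 0 in the difference of LPS responses (0.76 and 1.46), while Stat6 sits at 0 in KOLPS against KO.

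Stat2 encodes the partner of IRF9 in ISGF3, the complex that type I interferon sends to the ISRE. It had 1962, 1991 and 1970 normalized counts in WT and 10576, 9840 and 9807 in WTLPS. KO libraries held 942, 898 and 907 and KOLPS libraries 7736, 8680 and 7362. The KO libraries were the lowest of all and the WTLPS libraries the highest, and no groups overlapped. Stat2 rose 5.10-fold with LPS in WT (log2 2.35 ± 0.07 SE, adjusted p = 2.5e-12) and 8.66-fold in KO (log2 3.11 ± 0.08, adjusted p = 1.9e-13). It was 0.464 times the WT level in KO (adjusted p = 1.9e-08) and 0.787 times the WTLPS level in KOLPS (adjusted p = 0.00096). The LPS response was 1.70 times as large in KO as in WT (log2 0.76, 95% interval 0.55 to 0.98, adjusted p = 0.00014), so that a gap of 2.16-fold without LPS stood beside one of 1.27-fold with it. On TPM the difference in response had an adjusted p of 0.064. The summed neutrophil markers, mostly S100a8 and S100a9, were also lower in KO than in WT. The part of such cells in the values of Stat2 and Stat4 was not tested.

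Stat4 encodes the STAT of IL-12 and is known mainly from T and natural killer cells. It was at 694, 686 and 759 normalized counts in WT and at 1103, 1194 and 1374 in WTLPS. In KO it was at 314, 374 and 290 and in KOLPS at 1588, 1473 and 1560. The groups did not overlap, and their order was KO, WT, WTLPS, KOLPS, so CTCF-deficient cells held both the lowest and the highest libraries. Stat4 was 0.457 times the WT level in KO (log2 -1.13 ± 0.10, adjusted p = 6.5e-07) and 1.26 times the WTLPS level in KOLPS (adjusted p = 0.012). It rose 4.72-fold with LPS in KO (adjusted p = 1.6e-10) and 1.72-fold in WT (adjusted p = 9e-06, subject to the scaling given above). The response in KO was 2.75 times that in WT (log2 1.46, 95% interval 1.16 to 1.76, adjusted p = 1.4e-05), and 97.5% of genes tested had a lower value in that contrast.

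The 15 markers of natural killer and T cells summed to 11.9 to 15.8 TPM in WT, 3.13 to 5.29 in KO, 26.7 to 32.3 in WTLPS and 8.60 to 10.3 in KOLPS, and 4 of the 15 passed the filter on low counts. Of the single markers, chosen after their values were seen, Klrd1 was at 8.53 TPM in WT, 2.72 in WTLPS, 0.0433 in KO and 0.387 in KOLPS, and Cd247 at 1.5, 21.9, 0.947 and 4.42. Klrd1 made up most of the sum in WT and Cd247 most of it in WTLPS. Other markers went the other way in KO. Klrb1c was at 1.86 TPM in WT and 2.17 in KO, and Cd3e, Trac and Il2rb, all near 0, were also higher in KO. Gzma and Cd3e were at 0 in all WT and all WTLPS libraries and at most at 0.12 and 0.30 TPM in any library. Stat4 averaged 31.8 TPM in WT, 14.8 in KO, 33.2 in WTLPS and 48.3 in KOLPS. Its libraries lay above the range of that sum in WT, KO and KOLPS and overlapped it in WTLPS (29.1 to 38.8 TPM). The level of a gene beside a marker sum does not tell which cells carry its RNA. The sum was lower in KO than in WT, as Stat4 was, and lower in KOLPS than in WTLPS, where Stat4 was higher. The part of such cells in the Stat4 values was not tested.

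Stat3 encodes the STAT of IL-6 and IL-10. Its normalized counts were 2691, 2676 and 2720 in WT and 4951, 5780 and 6219 in WTLPS. They were 3212, 3090 and 3086 in KO and 9016, 8349 and 7905 in KOLPS. KOLPS libraries were the highest, with no overlap between any groups. Stat3 rose 2.10-fold with LPS in WT (log2 1.07 ± 0.08, adjusted p = 4.6e-08) and 2.69-fold in KO (adjusted p = 1.7e-09), and was 1.49 times the WTLPS level in KOLPS (log2 0.58, 95% interval 0.40 to 0.75, adjusted p = 4.7e-05). Without LPS it was 1.16 times the WT level in KO (adjusted p = 0.044), a call that was lost without any 1 replicate of either group (adjusted p of 0.085 to 0.18). The difference in LPS response was 0.36 on the log2 scale (adjusted p = 0.044), a call lost without any KO replicate, KOLPS replicate 1 or WTLPS replicate 1 or 2 (adjusted p up to 0.11).

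Stat5a and Stat5b encode near-identical STATs of GM-CSF, on which these cells were grown. Stat5a had 1597, 1848 and 1698 normalized counts in WT, 9343, 11563 and 11613 in WTLPS, 1807, 1827 and 1818 in KO and 10679, 10235 and 9546 in KOLPS. The LPS libraries were far above the others in both genotypes, and the WT and KO ranges overlapped in each state. It rose 6.32-fold in WT (log2 2.66 ± 0.09, adjusted p = 8.4e-12) and 5.59-fold in KO (log2 2.48 ± 0.09, adjusted p = 1.3e-11). No difference was called between KO and WT (log2 0.08, 95% interval -0.11 to 0.27, adjusted p = 0.47), between KOLPS and WTLPS (log2 -0.09, interval -0.28 to 0.09, adjusted p = 0.41) or between the responses (log2 -0.18, interval -0.44 to 0.09, adjusted p = 0.36). Without WTLPS replicate 1, which had the lowest count of its group, Stat5a was called lower in KOLPS than in WTLPS (log2 -0.19, adjusted p = 0.044).

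Stat5b stood at 1077, 1085 and 1137 normalized counts in WT, 2018, 2047 and 2142 in WTLPS, 1393, 1393 and 1288 in KO and 2318, 2365 and 2077 in KOLPS. All KO libraries were above all WT libraries, and KOLPS and WTLPS overlapped. It rose 1.88-fold with LPS in WT (log2 0.91 ± 0.07, adjusted p = 5.3e-08) and 1.66-fold in KO (adjusted p = 4.5e-07), and was 1.23 times the WT level in KO (log2 0.30, adjusted p = 0.0029). With LPS, no difference between the genotypes was called (log2 0.12, interval -0.03 to 0.27, adjusted p = 0.17), nor in the response (log2 -0.18, interval -0.39 to 0.03, adjusted p = 0.24). Since RSEM can divide reads between such paralogs, their share was also computed. Stat5a was 70.2% ± 2.10 of their joint TPM in WT, 88.8% ± 1.05 in WTLPS, 69.2% ± 0.901 in KO and 87.6% ± 0.156 in KOLPS (SD, n = 3). Both shifts with LPS had an exact permutation p of 0.1 (two-sided), the smallest that 3 against 3 allows.

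Stat6 encodes the STAT of IL-4 and IL-13 and had the smallest LPS fold of the 6 genes in both genotypes. Its normalized counts were 3270, 3512 and 3495 in WT and 3918, 4208 and 4198 in WTLPS. KO had 3898, 4092 and 4077 and KOLPS 3857, 4340 and 3859. WT libraries were the lowest, and the other groups overlapped one another. Stat6 was 1.20 times the WT level in WTLPS (adjusted p = 0.0042), lower on TPM as given above, and 1.17 times in KO (adjusted p = 0.013). The first call was lost without WT replicate 1 or 3 (adjusted p of 0.11 and 0.051) and the second without any WT replicate or KO replicate 2 (0.051 to 0.12). KOLPS was 0.999 times KO (95% interval -0.15 to 0.14 on the log2 scale, adjusted p = 0.99) and 0.978 times WTLPS (adjusted p = 0.74). The difference in LPS response missed the threshold (log2 -0.26, adjusted p = 0.077), while DESeq2 (-0.25, adjusted p = 0.022) and edgeR without KOLPS replicate 2 (0.013) or WTLPS replicate 1 (0.045) called it.

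**Figure D3:**
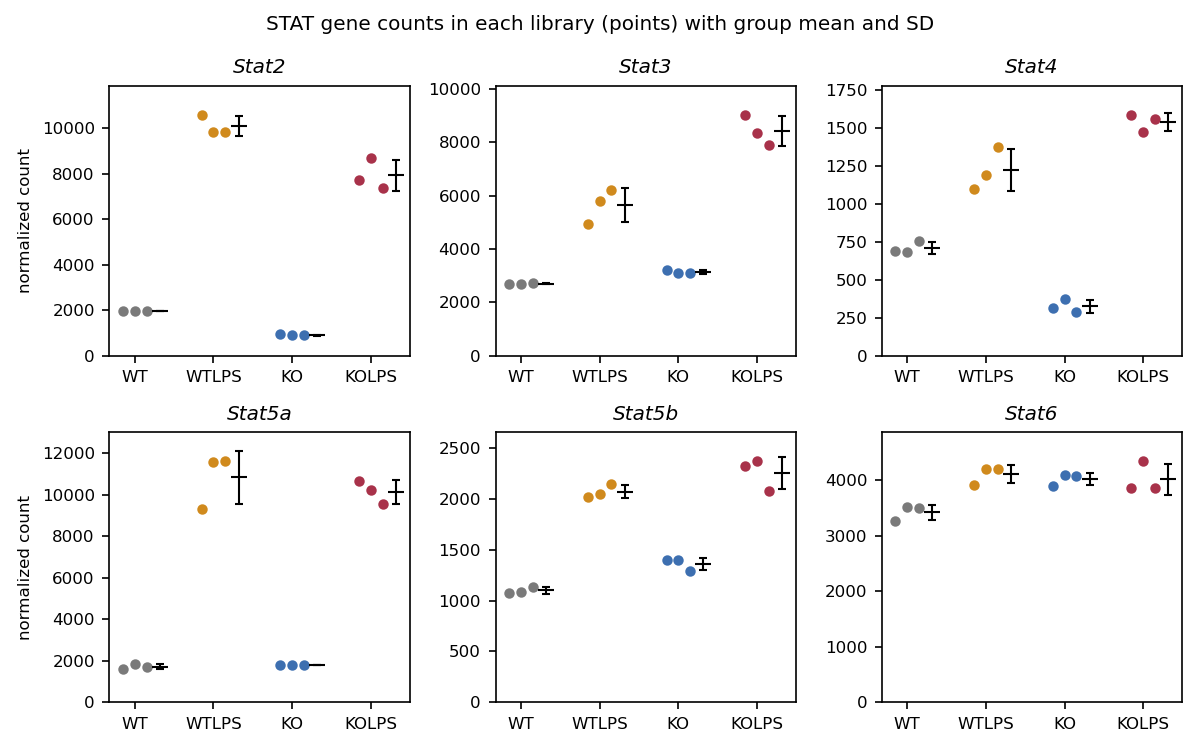
Normalized counts of each STAT gene (y axis, from 0) in the 12 libraries, with points for libraries and a bar for the mean and SD of each group of 3. Stat2 and Stat4 are lowest in KO (916 and 326 on average), Stat3 and Stat4 are highest in KOLPS (8423 and 1540), and Stat6 stays between 3270 and 4340.

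The effective length, which RSEM weights by the transcripts it assigns to a gene, was also compared between the groups. That of Stat4 was 2449 bases in WTLPS, 2151 in WT and 2099 in KOLPS, and that of Stat2 was 2894 bases in KOLPS and 2359 in KO. Stat5a had 2842 bases in KO and 3131 in WT. Each of these 4 differences had an exact permutation p of 0.1 (two-sided), the smallest possible, and the other 20 comparisons had a higher one. A p of 0.1, not adjusted over the comparisons, does not establish a change in effective length. TPM divides by this length, and the normalized counts do not.

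The genes whose pattern over the 12 libraries was most like that of each STAT gene were taken from 8986 genes with a mean of at least 5 TPM, by Pearson r on log2 TMM-scaled CPM. The points form 4 groups, so r describes the order of the group means. For Stat2 they were the antiviral genes Xaf1 and Oas1a (0.998 each) and Rtp4 (0.997), all interferon-stimulated. Xaf1 averaged 407 normalized counts in WT, 3152 in WTLPS, 153 in KO and 2736 in KOLPS. For Stat4 they were Fos (0.995), a subunit of the AP-1 factor, Stk17b (0.992) and Rabgap1l (0.987), with Fos at 691, 1389, 225 and 1880 normalized counts in the same order of groups. For Stat3 they were Pik3r1, the JAK-STAT inhibitor Socs2 and Rnaset2b (0.994 each). For Stat5a they were the corepressor Tle3 (0.999), the peptide transporter subunit Tap1 and Trafd1 (0.998 each), for Stat5b Nectin4 (0.996), Xpo6 (0.993) and Nectin2 (0.991), and for Stat6 only looser matches, Arhgef2 (0.926), Gprc5c (0.917) and St3gal1 (0.907).

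Genes within 50 kb of the STAT genes were examined because loops anchored by CTCF join or separate neighbours. Around Stat5b, Stat5a and Stat3, 4 other genes were tested. Cavin1, which encodes a coat protein of caveolae and lies 17193 bases beyond Stat3, had 44.1, 41.1 and 36.3 normalized counts in WT and 1527, 1520 and 1553 in KO. With LPS it had 146, 219 and 155 in WTLPS and 3800, 2690 and 3558 in KOLPS. Every CTCF-deficient library was far above every WT library. The log2 fold change was 5.24 in KO against WT (adjusted p = 2.6e-11) and 4.27 in KOLPS against WTLPS (adjusted p = 9e-11), beside 0.22 and 0.58 for Stat3. Kcnh4, a potassium channel gene 20789 bases from Stat5b, was lower in KO (3.77 against 36.0 normalized counts, adjusted p = 2.4e-05), and Rab5c and Ghdc were not called in KO against WT.

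Around Stat2, 6 genes were tested, of which 4 were called lower and 1 higher in KO than in WT (22.4% and 22.2% of all genes). Il23a, which encodes a subunit of the cytokine IL-23 and ends 3290 bases from Stat2, had 154, 119 and 111 normalized counts in WT and 12.6, 12.5 and 16.7 in KO. It had 548, 536 and 629 in WTLPS and 585, 429 and 552 in KOLPS. The unstimulated groups stood apart and the LPS groups overlapped, with a log2 fold change of -3.19 in KO against WT (adjusted p = 4.1e-08), -0.13 in KOLPS against WTLPS (adjusted p = 0.43) and a difference in LPS response of 3.06 (adjusted p = 5.1e-06). Timeless, a gene of the replication fork 17618 bases upstream, was at -0.72 in KO (adjusted p = 3.8e-06), and Apof, 406 bases upstream and at 1.85 to 15.6 normalized counts in these 2 groups, was at -2.12 (adjusted p = 0.00028). Around Stat6, 1 of 4 tested genes, Nemp1, was called in KO against WT. Around Stat4, Gm28177, which overlaps it, was at -1.01 (adjusted p = 0.24) and Gm31812 at -0.65 (adjusted p = 0.32), with 13.3 and 13.7 normalized counts in WT.

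**Figure D4:**
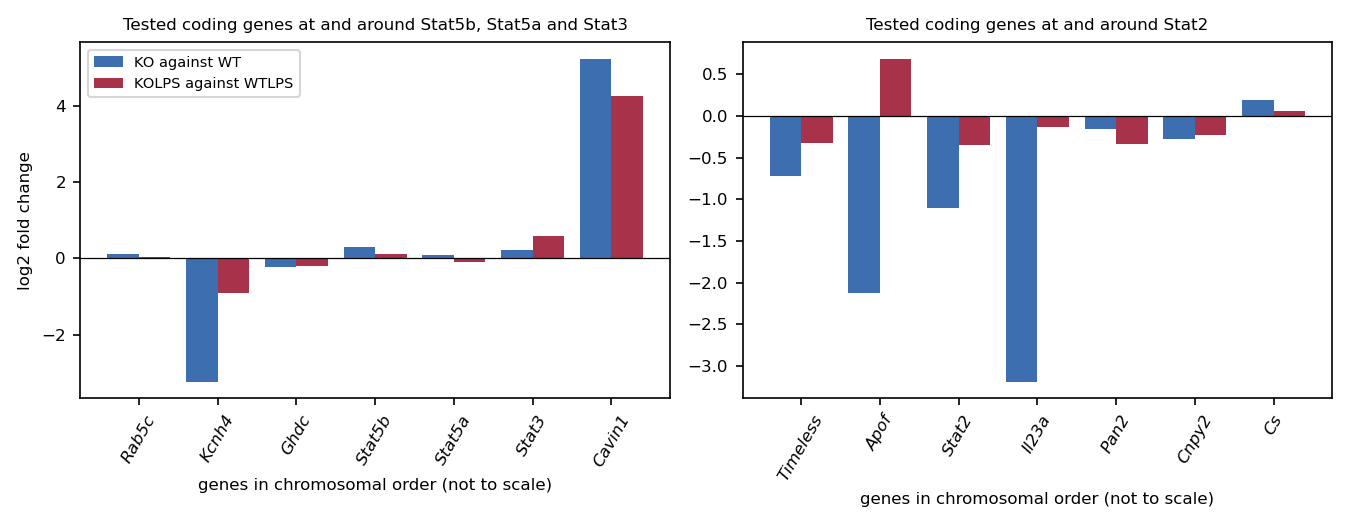
Log2 fold changes of normalized counts (y axis) with CTCF loss, without LPS and with LPS, for the tested coding genes in chromosomal order around Stat5b, Stat5a and Stat3 (left) and around Stat2 (right). Cavin1 rises by 5.24 beside a Stat3 value of 0.22, and Il23a lies at -3.19 beside a Stat2 value of -1.11.

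The other genes of the pathway were described by lists of kinases, receptor chains, ligands, inhibitors, partners and target genes. Their counts are to be read against the shares of all genes called, which were 30.0% higher and 30.2% lower with LPS in WT and 22.2% higher and 22.4% lower in KO against WT. Of the 4 JAK kinases, 3 were called higher in WTLPS than in WT. Jak2, which serves the GM-CSF receptor, rose by 1.23 on the log2 scale with LPS in WT (5728 to 13400 normalized counts, adjusted p = 4.3e-07) and was at -0.50 in KO against WT (adjusted p = 0.0025). Of 23 tested receptor chains, 10 were higher and 7 lower with LPS in WT (30.0% and 30.2% of all genes), led by Il2ra, a chain of the IL-2 receptor (2.84), and Il6ra, the IL-6 receptor (-2.78). In KO against WT, 9 chains were higher and 4 lower, led by Lifr, a receptor of LIF (2.02), and again Il2ra (-1.42). The medians of the chains were 0.23 and 0.06, against -0.02 and -0.01 over all genes.

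Of 14 tested ligands, 13 were higher with LPS in WT and 14 in KO (30.0% and 33.6% of all genes). The filter keeps a gene counted in a single group, and Csf2, Csf3, Ifnb1, Il10 and Il12a averaged at most 4.08 normalized counts without LPS. They were tested through their LPS libraries, so the filter itself fixed a rise with LPS for these genes. The ligand counts with LPS are thus no test against the shares over all genes. Il6, which signals through STAT3, rose from 70.4 to 17727 normalized counts in WT (log2 7.97). Ifnb1, the type I interferon that signals through STAT2, had 136, 148 and 162 normalized counts in WTLPS, 117, 91.3 and 145 in KOLPS, at most 4.32 in WT and none in KO, so that the KO group was at least 42.4-fold lower than KOLPS, with 3 counts per library as the limit. In KO against WT, 10 of the 14 ligands were lower and 1 was higher (22.4% and 22.2% of all genes). The higher gene was Ebi3, a subunit of IL-27 and IL-35 (0.68, adjusted p = 0.0022). The median over the ligands there was -2.14, or -0.80 with the 4 genes that had a group at or under 3 counts held at their bounds.

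Of the target genes of ISGF3, all 17 were higher with LPS in WT (median 4.30) and in KO (median 4.85), against 30.0% and 33.6% of all genes. In KO against WT, 12 were lower and 1 higher (22.4% and 22.2% of all genes), with a median of -0.75 against -0.01 over all genes. Oas2, an antiviral RNA synthetase, was lower (19.5 in KO against 108 normalized counts in WT, log2 -2.46, adjusted p = 4e-09), and Ifih1, a sensor of viral RNA, was higher (2791 against 1309, log2 1.09, adjusted p = 2.2e-06). With LPS, 6 were lower and 3 higher in KOLPS than in WTLPS (23.3% and 21.4% of all genes). The LPS response of 13 was called larger in KO (median 0.70), against 8.70% of all genes. Irf9, the partner of STAT2, was at -0.92 in KO (1266 to 668 normalized counts, adjusted p = 5e-08), with a difference in response of 0.84 (adjusted p = 3.5e-05). Jak2 and Irf9 were thus lower in KO along with Stat2.

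Of 9 target genes of STAT5, 6 were lower and none higher in KO than in WT (median -0.38, against 22.4% of all genes lower and 22.2% higher), led by Ccnd1, a cyclin (61.6 against 376 normalized counts, log2 -2.61), while neither STAT5 gene was called lower. Cycling markers summed to 195 to 202 TPM in KO and 339 to 375 in WT, and their part in the cyclin value was not tested. Of 10 target genes of STAT6, 6 were lower and 2 higher (median -0.85), led by Cdh1, which encodes E-cadherin (35.0 against 257, log2 -2.88), and Retnla (81.8 against 3.4, log2 4.51). Of 8 target genes of STAT3, 2 were lower and 2 higher in KO than in WT, near the shares over all genes. Of 5 tested target genes of STAT4, 2 were lower and 3 higher, led by Il18rap, an IL-18 receptor chain (131 against 491, log2 -1.91), and Gadd45g, a stress response gene (640 against 297, log2 1.11).

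Of 17 inhibitors, 4 were higher and 5 lower in KO than in WT, near the 22.2% and 22.4% of all genes. Ptpn1, a phosphatase of JAK kinases, had 12511 normalized counts in KO against 4078 in WT (log2 1.62, adjusted p = 2e-10), and Usp18, which restrains interferon signalling, had 226 against 452 (log2 -1.0, adjusted p = 5.3e-07). Socs3, the feedback inhibitor of STAT3 signalling, rose by 4.38 on the log2 scale with LPS in WT. It was lower in KOLPS (3956 normalized counts) than in WTLPS (6689, log2 -0.76, adjusted p = 3.5e-07), where Stat3 was higher. Of 7 partners, 1 was higher and 2 lower in KO.

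**Figure D5:**
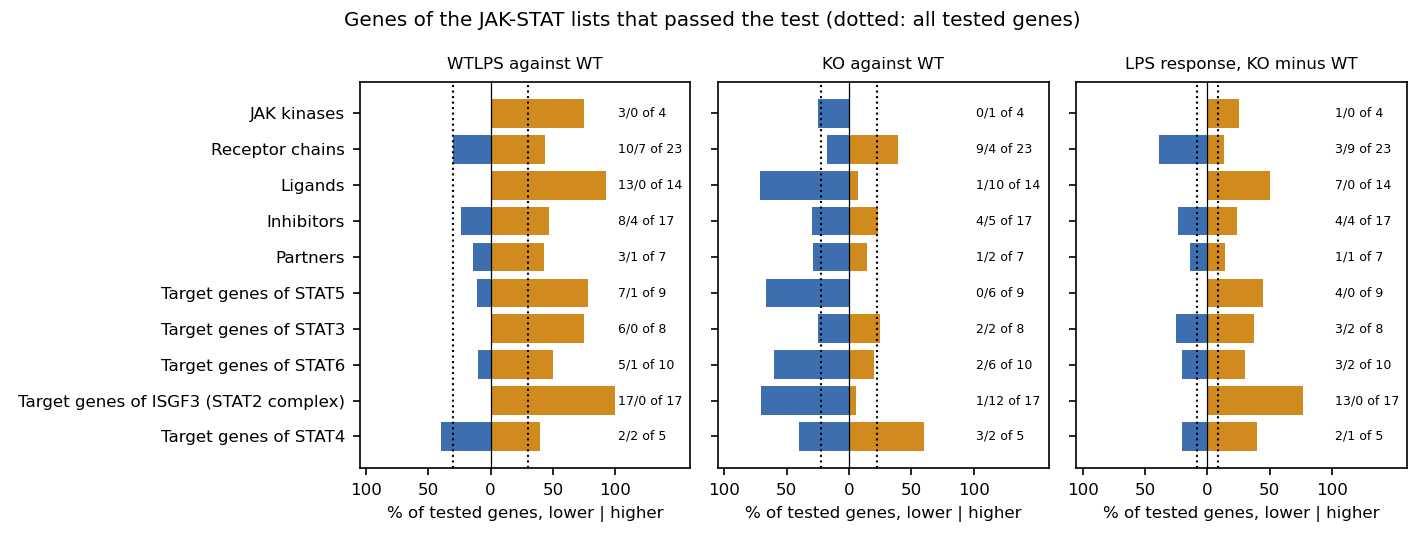
Share of the tested genes of each JAK-STAT list (percent, x axis) that passed the test as higher (right) or lower (left) in 3 comparisons, with the numbers higher and lower beside them and dotted lines for the shares over all genes tested. Of the targets of ISGF3, 17 of 17 are higher with LPS in WT and 12 of 17 lower in KO, and 13 have a larger LPS response in KO.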

How the data were processed

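Bulk RNA-seq was analysed in 12 libraries of mouse BMDCs, in 4 groups of 3 given by the sample titles. Per the study's methods, the authors used Trim Galore for trimming, STAR (2.5.1 in the submitters' processing notes) for alignment to mm10 and RSEM for quantification. They deposited an expected count per gene (8.0 to 9.1% of all values of a library were not whole), the TPM and an effective length. FPKM was deposited and not used. Ribosomal RNA was depleted according to the labels, whereas a poly(A) kit is named in the methods.

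Expected counts were rounded, filtered with filterByExpr by group, scaled by TMM and tested in 1 fit of all libraries with the quasi-likelihood test of edgeR 4.0.16 in R 4.3.3, with Benjamini-Hochberg adjustment over 14008 genes and a threshold of 0.05. A normalized count is a count divided by the TMM-adjusted library size, times the mean of those sizes. Errors of log2 fold changes are standard errors. Intervals cover the spread between replicates, which the study describes as biological, with 1 estimate per gene shared by the 4 groups. Positions are from GENCODE M21 on mm10, and the release behind the files is not given in the sources used here. Scripts were tested on simulated counts.

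Alternatives were DESeq2 1.42.0, its size factors, other filters, limma 3.58.1 on log2 TPM with a pseudocount of 1 or 0.1 (genes at 1 TPM in 3 libraries), a replicate block, each comparison alone, leaving out replicates and the fold cutoffs of the study. The members and lists were chosen with earlier results of these data known. Named genes are every member, Ctcf, the largest called rise and fall per list, the 3 most similar genes and genes within 50 kb; Xaf1, Fos, Ifnb1, Jak2, Irf9 and Socs3 come from those lists. Replicates of each group differed by more than counting noise. Chi-square values for each degree of freedom were 1.70 to 1.91 in KO, 3.33 to 4.76 in WT, 8.84 to 31.6 in KOLPS and 31.2 to 86.6 in WTLPS. The shared fit can thus give intervals too narrow for LPS groups and too wide for unstimulated ones. Fitted alone, KO against WT had 4096 genes higher and 4176 lower (3110 and 3131 in the shared fit). KOLPS against WTLPS had 2351 and 2124 (2991 and 3266).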

Additional observations from a re-analysis of the deposited data

Results flagged for a closer look

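The LPS response differed between KO and WT for 3 STAT genes by the interaction term of the edgeR fit. Stat4 differed most, by 1.46 on the log2 scale (adjusted p = 1.4e-05), from a rise of 1.72-fold in WT and 4.72-fold in KO. Stat2 differed by 0.76 (adjusted p = 0.00014), from 5.10-fold and 8.66-fold. Stat3 differed by 0.36 (adjusted p = 0.044), from 2.10-fold and 2.69-fold, and this is the value that depends on single libraries. With limma on TPM, only the difference of Stat4 was called, and those of Stat2 and Stat3 were not. For all 3 genes, each LPS library was above each unstimulated library of its genotype.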

How the results depend on the processing

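Of 212 summary values recomputed under alternatives, 189 stayed on their side, and of 510 values of single genes 456 did. Depth did not limit the STAT genes, each of which had at least 290 normalized counts. With limma on TPM, at either pseudocount, 1 STAT gene was lower in WTLPS than in WT (Stat6, -0.30) and 1 in KOLPS than in KO, 0 were higher in KO than in WT, and 1 had a larger LPS response in KO. With TPM brought to a common median, chosen after seeing the data, that last number was also 1. With the fold cutoffs of the study (2 for LPS, 1.3 for KO against WT, 1.5 for KOLPS against WTLPS), 3 genes were higher with LPS in WT, 0 were higher in KO, and 0 were higher and 0 lower in KOLPS than in WTLPS. DESeq2 called 1 smaller response in KO, Stat6.

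Leaving out 1 replicate, 1 to 2 genes were higher in KO than in WT (3 with all replicates), the lowest without any WT replicate or without KO replicate 2. Leaving out a WT replicate also moved the median of all genes, from -0.01 to -0.05 or -0.04 in KO against WT. In WTLPS against WT it moved from -0.02 to -0.10 or -0.09. The part of this shift in the lost calls was not tested. The number lower in KOLPS than in WTLPS was 1 to 2 (2 without WTLPS replicate 1), and the number with a smaller response in KO was 0 to 1 (1 without KOLPS replicate 2 or WTLPS replicate 1). In WTLPS 4 to 6 genes kept their rank (4 without replicate 1). The Stat5a share in KO minus WT ranged from -1.97 to 0.0808 percentage points. Apart from Stat6 in WTLPS against WT, which turned from 0.26 to -0.30 on TPM, the values that changed sign were near 0. These were Stat5a in KO against WT (0.00 to 0.11 without 1 replicate) and Stat6 in KOLPS against KO (0.01 with DESeq2, 0.02 with its size factors, -0.06 to 0.03 without 1 replicate). The summed counts of Stat5a and Stat5b, most of which are Stat5a, were at -0.06 in KOLPS against WTLPS, where Stat5b alone was at 0.12. The cause was not tested.

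Same-numbered replicates did not deviate together (correlations of -0.325 to 0.126 over the pairs of groups). The numbers thus gave no sign of paired samples, but other spread between libraries could hide a pairing, so none is excluded. With a replicate block, 2 genes were higher in KO and 2 had a larger response, since Stat3 was lost in both (adjusted p = 0.071 and 0.076), and no other call of a STAT gene changed.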
